A study of Homo sapiens with 12 samples.

Results

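Keratin genes encode the keratins, the intermediate filament proteins of epithelial cells, and were described here in 2 cancer cell lines across 3 treatments. Every gene symbol made of KRT, a number and at most a letter A to C was taken, which leaves out the keratin-associated proteins of hair. This gave 55 genes of the 23686 gene symbols measured, 29 of type I and 26 of type II. RNA sequencing was done on HCT116, a line from a colon cancer, and MDA-MB-231, a line from a breast cancer. Each line was given the anti-Hsp60N antibody together with H2O2, control IgG together with H2O2, or control IgG alone. The H2O2 exposure was 100 µM for 8 h in both H2O2 groups, and no group had the antibody without H2O2. There were 2 libraries in each of the 6 groups, 12 in all. The culture medium held 10% serum in each case but was of a different kind for each line, and line and medium therefore cannot be told apart.

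Keratins fall into 2 types, the acidic type I and the basic or neutral type II, and a filament is built from pairs that hold a chain of each type. Different epithelia are known for different pairs: KRT8 with KRT18 in simple epithelia such as gut and breast ducts, KRT5 with KRT14 in the basal layer of stratified epithelia, KRT1 with KRT10 above it, KRT4 with KRT13 in mucosae, and a separate set in the hair shaft. KRT6A, KRT6B, KRT6C, KRT16 and KRT17 are known as keratins of wounded or stressed epidermis. Vimentin, encoded by VIM, is the intermediate filament protein of mesenchymal cells and is of neither type.

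The values were TPM, a relative abundance in which gene length and library size are scaled out. Read depth cannot be recovered from TPM, and intervals for counting error are therefore not given. Replicate libraries agreed closely (Pearson's r of 0.994 to 0.996 across genes), but the labels do not state whether separate cultures were used. The p-values therefore measure only the spread between these libraries, which may be technical. Epithelial markers fixed as a list of 7 all reached 1 TPM in HCT116, where they summed to 888 to 1013 TPM, and 4 of 7 did so in MDA-MB-231, where they summed to 166 to 188 TPM. CDH1, which encodes E-cadherin, was at 0.45 to 0.65 TPM in MDA-MB-231, and the splicing factor gene ESRP1 was at or below 0.12 TPM there. Of 7 markers of colon epithelium only CDX2 reached 1 TPM in HCT116, and none did in MDA-MB-231. Of 6 markers of luminal breast epithelium 3 reached 1 TPM in MDA-MB-231, with ESR1 and PGR at or below 0.04 TPM, and 4 did in HCT116. The luminal breast markers summed to 46.3 to 53.1 TPM in MDA-MB-231 and 49.3 to 56.4 TPM in HCT116, so they did not set the lines apart. None of the 4 basal and squamous markers reached 1 TPM in either line. The immune markers summed to 0.41 to 1.99 TPM in HCT116 and 5.1 to 7.04 TPM in MDA-MB-231, where CD14 gave 4.16 to 6.46 TPM, and PTPRC and CD3E were at or below 0.08 TPM in every library. In samples of many cells, fewer cells that express a gene and less of its RNA per cell cannot be told apart.

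Of the 55 keratins, 18 reached 1 TPM in at least 2 libraries and entered the test, 12 of type I and 6 of type II. The other 37 never rose above 0.84 TPM, and 16 of them, 7 of type I and 9 of type II, were listed at 0 in all 12 libraries. Of all 23686 genes, 13956 entered the test and 4505 were listed at 0 in all 12 libraries. Keratins were grouped by the epithelium they are known from, and KRT80, found in many epithelia, was put with those of simple epithelia. All 7 keratins of that group entered the test, against 1 of 3 of the basal layer and 3 of 5 of stressed epidermis. The counts were 2 of 13 for suprabasal, mucosal or corneal layers, 0 of 9 for the root sheath and 4 of 17 for the hair shaft. KRT222, which was placed in none of these groups, also entered. The counts at 0 were uneven between the lines: 17 keratins were at 0 in all 6 HCT116 libraries and 31 in all 6 MDA-MB-231 libraries. Of these, 15 were at 0 throughout MDA-MB-231 and above 0 somewhere in HCT116, and 1, KRT33B, was the reverse. Keratins at or above 1 TPM numbered 13 to 15 per library in HCT116 and 10 to 11 in MDA-MB-231. Over all genes, 12434 to 12653 per library were at or above 1 TPM in HCT116 and 12411 to 12499 in MDA-MB-231. Genes at 0 throughout a line were not counted over all genes. Without a known depth a value of 0 says only that the gene was listed at 0. The partners of 2 type I genes that entered the test were among those at 0 in all 12 libraries, namely KRT1, which pairs with KRT10, and KRT4, which pairs with KRT13.

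**Figure D1:**
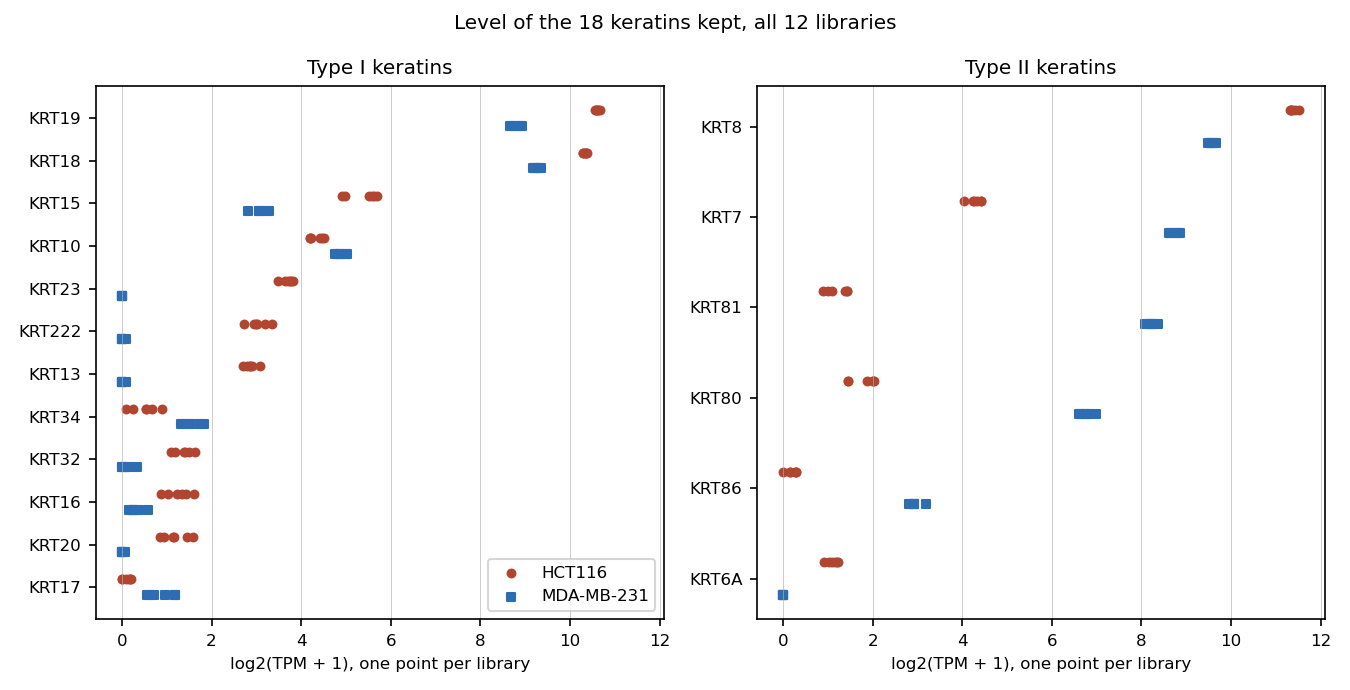
Level of the 18 keratins that entered the test as log2(TPM + 1), with type I left and type II right and 1 point per library (circles HCT116, squares MDA-MB-231, 6 libraries each, all treatments). KRT8, KRT18 and KRT19 lie to the right in both lines, and KRT7, KRT80, KRT81 and KRT86 lie far apart between the lines.

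HCT116 had more keratin RNA in total, and MDA-MB-231 had a larger type II part. All keratins together made up 0.552% ± 0.00742 of all TPM with antibody and H2O2, 0.559% ± 0.00998 with IgG and H2O2 and 0.580% ± 0.00979 with IgG in HCT116 (SD, n = 2 each). The same share in MDA-MB-231 was 0.267% ± 0.00541, 0.254% ± 0.000334 and 0.288% ± 0.00377 in the same order of treatments. No library of one line came within the range of the other. Type II keratins gave 46.8% ± 0.112, 47.2% ± 0.0317 and 49.4% ± 1.42 of the keratin TPM in HCT116 with antibody and H2O2, with IgG and H2O2 and with IgG. In MDA-MB-231 the type II share was 59.4% ± 0.492, 59.2% ± 0.440 and 59.5% ± 0.388. Summed TPM of type II was thus below that of type I in 5 of the 6 HCT116 libraries, with ratios of 0.878 to 1.02, and above it in all MDA-MB-231 libraries, with ratios of 1.43 to 1.48. These shares are descriptions with no test.

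Nearly all type I keratin RNA came from the same pair of genes in both lines, while the type II part had a different makeup. KRT18 and KRT19 together gave 96.6 to 97.2% of type I TPM in HCT116 and 96.0 to 96.7% in MDA-MB-231. KRT19 was the larger of the pair in every HCT116 library, at 52 to 54.8% of type I TPM, and KRT18 was the larger in every MDA-MB-231 library, at 54.1 to 57.8%. Within type II, KRT8 gave 99.0 to 99.2% in HCT116 and 46.8 to 48.2% in MDA-MB-231. The rest of type II in MDA-MB-231 was mostly KRT7 at 26.0 to 27.3%, KRT81 at 18.2 to 18.9% and KRT80 at 6.42 to 7.22%. The TPM ratio of KRT8 to its partner KRT18 was 1.95 to 2.35 in HCT116 and 1.2 to 1.3 in MDA-MB-231. Annotated pseudogenes were counted for KRT8, KRT16, KRT17, KRT18 and KRT19 only, and KRT8 and KRT18 had the most (50 and 68 in GENCODE v29). Leaving out KRT8 and KRT18, the type II share was 1.39 to 1.56% in HCT116 groups and 63.2 to 63.7% in MDA-MB-231 groups. Leaving out KRT81, KRT86 and the other near-identical copies, the share in MDA-MB-231 groups was 54.0 to 54.3%.

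**Figure D2:**
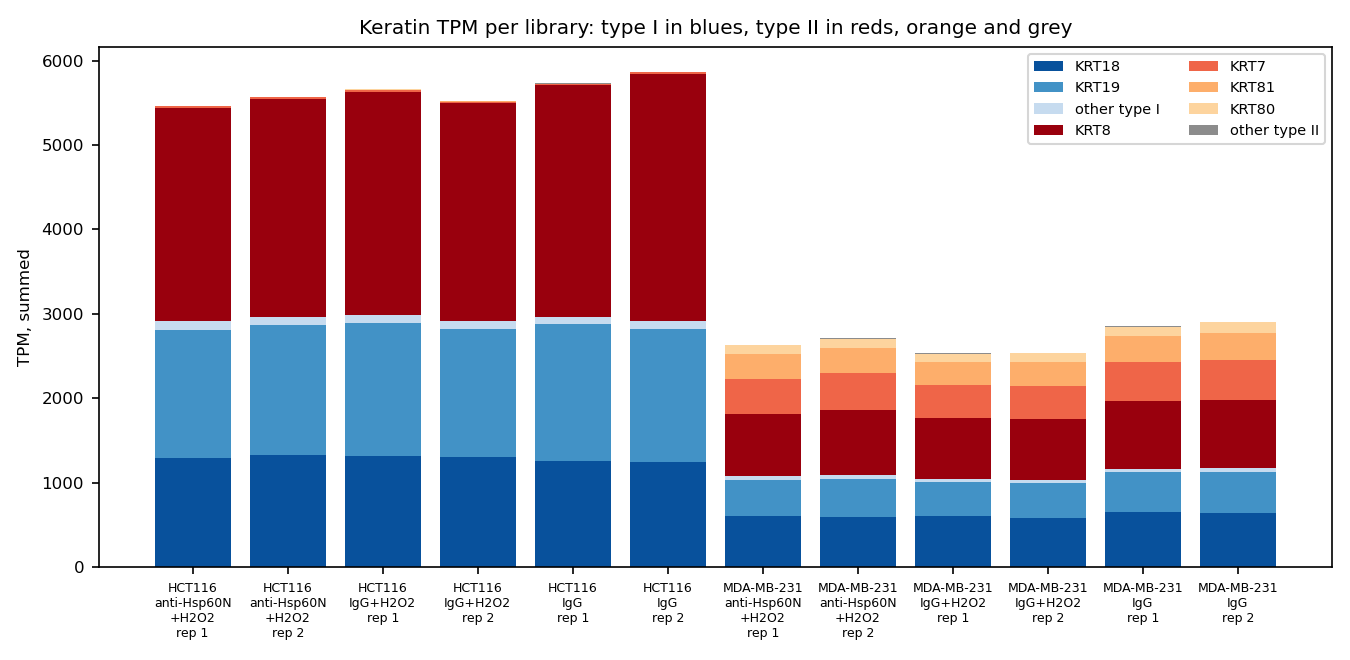
Summed keratin TPM in each library, with bars stacked by gene, HCT116 in the left 6 bars and MDA-MB-231 in the right 6, and the treatments of each line from antibody with H2O2 to IgG. KRT8 fills nearly the whole type II part in HCT116, where totals were 5468 to 5868 TPM, and shares it with KRT7, KRT81 and KRT80 in MDA-MB-231, where totals were 2535 to 2908 TPM.

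The lines were compared under IgG, where 11 of the 18 keratins were higher in HCT116 and 7 were lower at a limma adjusted p under 0.05. Across all 13956 genes tested, 82.8% passed in this comparison, 45.5% higher and 37.3% lower, and a keratin that entered the test through 1 line only had to differ, so the count itself is no result about keratins. By type, 9 of 12 type I genes were higher and 3 lower, with a median log2 fold change of 1.43. Of the 6 type II genes, 2 were higher and 4 lower, with a median of -3.72. The filter fixed the direction of many of these: KRT6A, KRT13, KRT16, KRT20, KRT23, KRT32 and KRT222 reached 1 TPM in HCT116 only, and KRT17, KRT34 and KRT86 in MDA-MB-231 only. The split and medians by type are therefore no result about the types. The median over all genes was 0.11, and -0.01 after median-of-ratios scaling. Fold changes throughout are differences on the log2(TPM + 1) scale, a scale that understates changes at low levels.

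KRT8 was at 2749 and 2931 TPM in the HCT116 libraries with IgG, against 802 and 813 TPM in the MDA-MB-231 libraries with IgG. It ranked 44 to 62 among all genes of an HCT116 library and 163 to 194 in MDA-MB-231, over all treatments. Its log2 fold change between the lines was 1.81 (SE 0.04, limma adjusted p = 9.33e-12). KRT18 was at 1253 and 1249.98 TPM in HCT116 with IgG, against 649.9 and 642 TPM in MDA-MB-231 with IgG, which is 0.95 on the log2 scale (SE 0.04, limma adjusted p = 7.83e-10). KRT19, a small type I keratin without a tail domain, was at 1622 and 1574 TPM in HCT116 with IgG, against 476 and 489 TPM in MDA-MB-231 with IgG. The groups of all 3 genes lay well apart, and KRT19 differed by 1.73 (SE 0.04, limma adjusted p = 2.27e-11).

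The 4 type II keratins that were lower in HCT116 were KRT7, KRT80, KRT81 and KRT86. KRT7, known from glandular and ductal epithelia, was at 18.3 and 20.5 TPM in HCT116 with IgG, against 458 and 465 TPM in MDA-MB-231 with IgG. KRT80, a type II keratin found in many epithelia, was at 1.72 TPM in both HCT116 libraries with IgG, against 113 and 125.5 TPM in the MDA-MB-231 libraries. KRT81, a keratin of the hair cortex, was at 1.01 and 1.68 TPM in HCT116 with IgG, against 307 and 328 TPM in MDA-MB-231 with IgG. All 3 lay far lower in HCT116, with log2 fold changes of -4.50 for KRT7, -5.47 for KRT80 and -7.10 for KRT81 (SE 0.07, 0.07 and 0.17, limma adjusted p at or below 1.24e-11 for each). KRT86, another hair keratin, was at 0.11 TPM and listed at 0 in the HCT116 libraries with IgG, against 8.12 and 6.04 TPM in MDA-MB-231. KRT81 and KRT86 overlap in the RefSeq annotation, and 38.4% of the 50-base windows of KRT81 transcripts also occur in KRT86, so how the authors' counting split reads between them is uncertain.

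Most type I genes of lower level were higher in HCT116, but all of these except KRT15 reached 1 TPM in HCT116 only. The filter thus fixed their direction, and the split is no result about type I genes. KRT15, known from basal cells and the hair follicle bulge, was at 30.6 and 29.3 TPM in HCT116 with IgG, against 8.45 and 8.79 TPM in MDA-MB-231 with IgG (log2 fold change 1.69, SE 0.09, limma adjusted p = 1.24e-08). KRT23, a type I keratin of simple epithelia, was at 11.5 and 12.7 TPM in HCT116 with antibody and H2O2, at 10.2 and 12 TPM with IgG and H2O2 and at 12.5 and 13.0 TPM with IgG, and was listed at 0 in all 6 MDA-MB-231 libraries. KRT13, of mucosal epithelia, was at 5.46 to 7.43 TPM across HCT116 and listed at 0 in 5 MDA-MB-231 libraries, with 0.07 TPM in the other. KRT222 was likewise at 5.65 to 9.13 TPM in HCT116 and at 0 in 5 MDA-MB-231 libraries, with 0.06 TPM in the other. No fold change is given for these 3 genes or for KRT20 and KRT6A, since their MDA-MB-231 libraries with IgG were at 0. KRT6A was at 0.89 to 1.34 TPM in HCT116, and it shares 35.2% of its 50-base windows with KRT6C and 28.5% with KRT6B.

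Among type I genes, 3 were lower in HCT116. KRT10, the suprabasal partner of KRT1, was at 21.0 and 21.8 TPM in HCT116 with IgG, against 27.8 and 28.0 TPM in MDA-MB-231 with IgG, a difference of -0.36 (SE 0.07, limma adjusted p = 0.000404). KRT34, of the hair cortex, was at 0.19 and 0.07 TPM in HCT116 with IgG, against 1.57 and 1.81 TPM in MDA-MB-231 with IgG (log2 fold change -1.25, SE 0.12, limma adjusted p = 1.46e-06). KRT17 was at 0 to 0.15 TPM across HCT116 and at 0.48 to 1.27 TPM across MDA-MB-231. The last 2 genes higher in HCT116 were KRT16, at 0.82 to 2.06 TPM against 0.12 to 0.50 TPM in MDA-MB-231, and KRT32, a hair cuticle keratin, at 1.13 to 2.12 TPM against 0 to 0.27 TPM. None of these 5 genes overlapped between the lines in any library of any treatment.

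Type I and type II genes lie in separate clusters, and the 4 type II genes that were lower in HCT116 than in MDA-MB-231 were neighbours. In RefSeq (GRCh38.p14) all 55 genes were found, 27 on chromosome 12 and 28 on chromosome 17. All of type II were on chromosome 12, with KRT18 as the 1 type I gene there. The order on chromosome 12 starts with KRT80, KRT7, KRT86 and KRT81, which are the 4 type II genes higher in MDA-MB-231, and ends with KRT8 and KRT18, which were higher in HCT116. KRT8 and KRT18 overlap in the RefSeq annotation, so without a stated strand setting reads from the overlap cannot be told apart. Between these ends no gene of chromosome 12 other than KRT6A entered the test. On chromosome 17 the genes above 5 TPM in HCT116 were spread along the order, from KRT222 at its start to KRT10, KRT23, KRT13, KRT15 and KRT19.

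**Figure D3:**
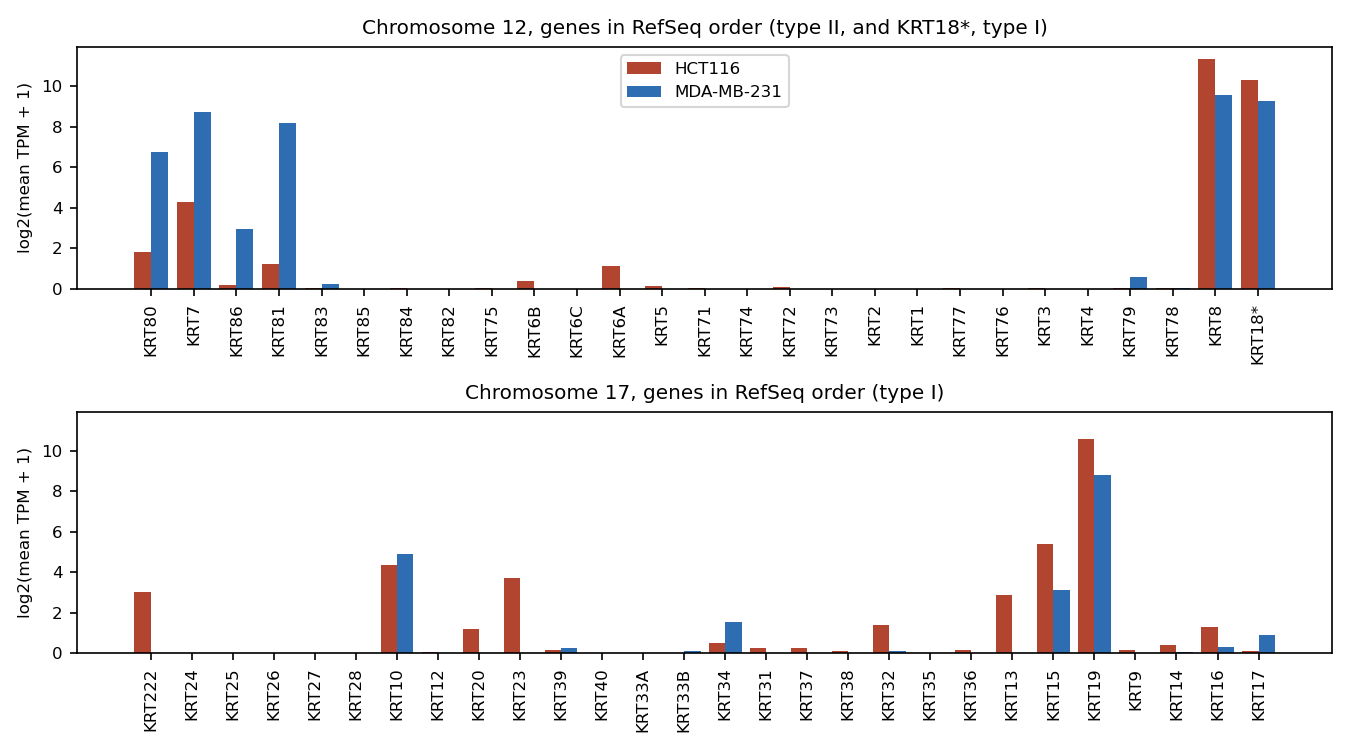
Mean TPM over the 6 libraries of each line, as log2(mean TPM + 1), for the keratins in their order on chromosome 12 (top, type II and KRT18) and chromosome 17 (bottom, type I), with distances not drawn. The MDA-MB-231 bars exceed the HCT116 bars for KRT80, KRT7, KRT86 and KRT81 at the start of chromosome 12, and the HCT116 bars are higher for KRT8 and KRT18 at its end.

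A promoter sequence in the RefSeq table (GRCh38.p14, 250 bases before to 50 after the start) was matched for 34 of the 55 keratins, 5 of them among the 18 tested. The 3 type I genes of these that passed the test in a comparison within HCT116 (KRT10, KRT20 and KRT34) are shown with the matches to the motifs searched in capitals. They are KRT34 and KRT20, which moved in opposite directions with H2O2, and KRT10, which was lower with antibody and H2O2. KRT8, of type II, also passed within HCT116 and had a promoter, which held no match to any motif searched and is not shown. In KRT34 and KRT10 the capitals mark a TATA box, and in KRT20 they mark an E-box on the opposite strand.
KRT34 promoter (chr17:41382257-41382556, minus strand): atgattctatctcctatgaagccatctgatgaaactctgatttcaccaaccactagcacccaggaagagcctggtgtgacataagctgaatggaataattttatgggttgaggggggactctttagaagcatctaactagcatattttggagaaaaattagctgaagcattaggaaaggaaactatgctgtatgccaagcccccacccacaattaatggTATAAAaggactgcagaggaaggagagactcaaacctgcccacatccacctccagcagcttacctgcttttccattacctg
KRT20 promoter (chr17:40885193-40885492, minus strand): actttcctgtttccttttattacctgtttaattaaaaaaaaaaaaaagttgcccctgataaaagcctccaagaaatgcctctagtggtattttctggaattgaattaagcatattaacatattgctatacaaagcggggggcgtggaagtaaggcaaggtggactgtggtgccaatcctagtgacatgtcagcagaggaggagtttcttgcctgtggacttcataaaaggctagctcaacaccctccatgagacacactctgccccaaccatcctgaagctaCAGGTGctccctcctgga
KRT10 promoter (chr17:40822565-40822864, minus strand): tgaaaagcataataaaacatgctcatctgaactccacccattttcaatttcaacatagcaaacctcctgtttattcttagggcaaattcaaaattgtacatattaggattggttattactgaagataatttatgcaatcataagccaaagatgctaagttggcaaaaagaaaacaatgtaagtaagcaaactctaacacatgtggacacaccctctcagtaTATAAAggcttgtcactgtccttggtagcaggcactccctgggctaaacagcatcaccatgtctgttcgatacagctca

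The motifs searched on both strands were the TATA box TATAAA, the GC box GGGCGG, the E-box CACCTG, which ZEB and SNAI repressors bind, and the AP-1 site TGANTCA. No motif overlaps another in the promoters printed. A TATA box stood in 20 of the 34 keratin promoters (58.8%), against 11.5% of all 35116 promoters of the same length. Of the 5 tested keratins with a promoter 2 had one (40%), so the 58.8% rests mostly on keratins that did not enter the test. The GC box stood in 6 keratin promoters (17.6%), against 45% of all promoters, and the E-box in 8 (23.5%), against 20.6%. No AP-1 match was found in the 34 windows, against 7.71% of all promoters. In KRT34 the TATA box began 31 bases before the start and in KRT10 29 bases before it. These matches describe letters in the windows and are neither sites nor causes.

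With H2O2 in HCT116, 3 keratins rose and 2 fell. KRT15, KRT34 and KRT80 were higher and KRT20 and KRT8 lower with IgG and H2O2 than with IgG, so 5 of 18 passed at a limma adjusted p under 0.05. The background was close to this: 32.9% of all genes tested passed in this comparison, 15.4% higher and 17.5% lower. By type, 2 of 12 type I genes were higher and 1 lower (median log2 fold change -0.08), and 1 of 6 type II genes was higher and 1 lower (median 0.08), with a median of -0.01 over all genes.

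KRT15 was at 48.4 and 47.0 TPM in HCT116 with IgG and H2O2, against 30.6 and 29.3 TPM with IgG. Both H2O2 libraries lay far above both IgG libraries, and the log2 fold change was 0.65 (SE 0.09, limma adjusted p = 0.000484). KRT80 was at 3.10 and 2.67 TPM with IgG and H2O2, against 1.72 TPM in both IgG libraries, again without overlap (0.51, SE 0.07, limma adjusted p = 0.000444). KRT34 was at 0.58 and 0.85 TPM with IgG and H2O2, against 0.19 and 0.07 TPM with IgG. These KRT34 values were all below 1 TPM, and the gene entered the test through MDA-MB-231 (0.60, SE 0.12, limma adjusted p = 0.00339). KRT20, a keratin of differentiated intestinal epithelium, was at 0.91 and 0.80 TPM with IgG and H2O2, against 1.74 and 1.99 TPM with IgG. The KRT20 libraries did not overlap either, and the log2 fold change was -0.63 (SE 0.10, limma adjusted p = 0.000873).

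The most abundant keratin moved least among the 5. KRT8 was at 2648 and 2582 TPM in HCT116 with IgG and H2O2, against 2749 and 2931 TPM with IgG, a log2 change of -0.12 (SE 0.04, limma adjusted p = 0.0497). The H2O2 libraries were both below the IgG libraries, but the call was lost under 5 of 7 other ways of fitting and without any of 3 libraries, with a limma adjusted p of 0.0943 without IgG with H2O2 replicate 1, 0.254 without IgG replicate 2 and 0.209 without IgG with H2O2 replicate 2. Its partner KRT18 was at 1312 and 1303 TPM with IgG and H2O2, against 1253 and 1249.98 TPM with IgG, which did not pass (0.06, SE 0.04, limma adjusted p = 0.226). KRT19 was at 1575 and 1517 TPM against 1622 and 1574 TPM, with overlapping libraries. KRT7 was at 20.5 and 19 TPM with IgG and H2O2, against 18.3 and 20.5 TPM with IgG, also overlapping. KRT10 was at 20.3 and 17.6 TPM with IgG and H2O2, against 21.0 and 21.8 TPM with IgG, and did not pass (-0.17, SE 0.07, limma adjusted p = 0.0781). KRT222 was at 6.71 and 5.65 TPM against 7.02 and 9.13 TPM and did not pass either (-0.33, SE 0.13, limma adjusted p = 0.0682). Under quantile normalization KRT10 and KRT222 passed (limma adjusted p = 0.0489 and 0.0319).

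The remaining keratins of HCT116 showed no call with H2O2. KRT13 was at 6.48 and 5.93 TPM with IgG and H2O2, against 6.29 and 7.43 TPM with IgG. KRT81 was at 1.69 and 1.13 TPM against 1.01 and 1.68 TPM, and KRT86 at 0.22 and 0.11 TPM against 0.11 TPM and 0. Among the stress keratins, KRT16 was at 1.52 and 1.33 TPM with IgG and H2O2, against 0.82 and 1.05 TPM with IgG, without overlap but without passing (0.33, SE 0.14, limma adjusted p = 0.089). KRT6A and KRT17 overlapped between the groups. Over the 9 keratins with a group mean of at least 5 TPM in HCT116, 2 were higher and 4 lower with libraries that did not overlap, where 29.1% of all genes were higher and 33.6% lower without overlap. Such shares of all genes, here and below, cover every gene tested, with no 5 TPM condition, so the gene sets are not matched in level.

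**Figure D4:**
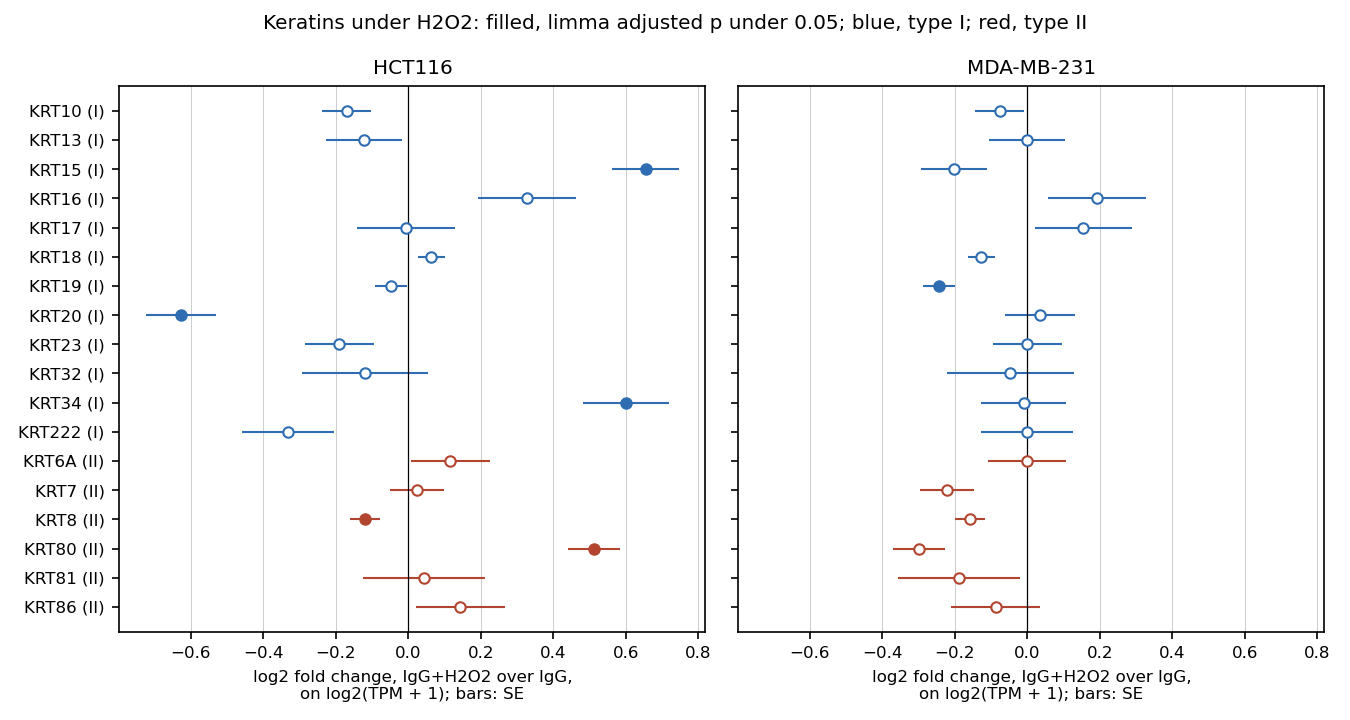
Log2 fold change of IgG with H2O2 over IgG for the 18 keratins tested, on the log2(TPM + 1) scale, in HCT116 (left) and MDA-MB-231 (right), with bars for the SE and filled points for a limma adjusted p under 0.05. In HCT116 the filled points lie on both sides of 0, with KRT15 at 0.65 and KRT20 at -0.63, and in MDA-MB-231 only KRT19 is filled, at -0.24.

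With H2O2 in MDA-MB-231, KRT19 fell and no other keratin passed. The 1 call of 18 stands against 2.66% of all genes called in this comparison, of which 181 genes (1.3%) were higher and 190 (1.36%) lower. With scaling by the median of ratios, 151 were higher and 284 lower. KRT19 was at 403 and 411 TPM with IgG and H2O2, against 476 and 489 TPM with IgG. The libraries did not overlap, and the log2 fold change was -0.24 (SE 0.04, limma adjusted p = 0.0156). The KRT19 call was lost without any 1 of the 4 libraries, with a limma adjusted p of 0.0629 without IgG replicate 1, 0.0903 without IgG replicate 2, and 0.141 and 0.103 without IgG with H2O2 replicates 1 and 2.

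The abundant keratins of MDA-MB-231 had lower values with H2O2 as a group. Of the 9 with a group mean of at least 5 TPM in this line, 8 were lower with IgG and H2O2 than with IgG without overlap and none was higher, with a median log2 fold change of -0.19 and a range of -0.30 to -0.08. Among all genes tested, 17.3% were lower and 30.4% higher without overlap in this comparison, and the median was 0.03. That background has no 5 TPM condition and includes genes of low level in this line. KRT8 was at 719.8 and 727 TPM with IgG and H2O2, against 802 and 813 TPM with IgG (-0.16, SE 0.04, limma adjusted p = 0.0776). KRT18 was at 602 and 581 TPM against 649.9 and 642 TPM (-0.13, SE 0.04, limma adjusted p = 0.11). Neither of this pair passed, although neither overlapped. KRT7 was at 398 and 393 TPM with IgG and H2O2, against 458 and 465 TPM with IgG (-0.22, SE 0.07, limma adjusted p = 0.158). KRT80 was at 95.8 and 97.8 TPM against 113 and 125.5 TPM (-0.30, SE 0.07, limma adjusted p = 0.0541). KRT80 passed with 3 of the other ways of processing, which are median-of-ratios scaling, quantile normalization and the stricter filter on low values.

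The hair keratins and low type I genes of MDA-MB-231 completed this picture. KRT81 was at 271 and 286 TPM with IgG and H2O2, against 307 and 328 TPM with IgG, without overlap (-0.19, SE 0.17, limma adjusted p = 0.649). The fit estimates the spread of a gene over both lines, so this SE also takes in the HCT116 libraries, at 0.86 to 1.69 TPM. It is therefore no measure of the spread within MDA-MB-231. KRT15 was at 7.39 and 7.33 TPM against 8.45 and 8.79 TPM (-0.20, SE 0.09, limma adjusted p = 0.299), and KRT10 at 27.0 and 25.9 TPM against 27.8 and 28.0 TPM. KRT86, the exception among the 9, was at 6.49 and 6.60 TPM with IgG and H2O2, against 8.12 and 6.04 TPM with IgG, and overlapped. KRT34 was at 1.49 and 1.86 TPM against 1.57 and 1.81 TPM, with a log2 change of -0.01 (SE 0.12). The low genes KRT16 and KRT17 overlapped between the groups.

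The summed keratin level of MDA-MB-231 was 2537 ± 3.34 TPM with IgG and H2O2 and 2881 ± 37.7 TPM with IgG (SD, n = 2 each). The type II share stood at 59.2% and 59.5% in these groups, so the type I and type II sums differed by similar proportions. The epithelial and mesenchymal marker sums were also lower with IgG and H2O2, but a single gene made up most of each sum. The 7 epithelial markers summed to 166 to 169 TPM with IgG and H2O2 and 185 to 188 TPM with IgG, and the 5 mesenchymal markers to 2364 to 2369 TPM against 2648 to 2704 TPM. CLDN4 was at 107 and 105 TPM against 121 and 122 TPM, and VIM at 2235 and 2233 TPM against 2518 and 2551 TPM. ZEB1, of the mesenchymal list, went the other way, at 22.4 and 22.9 TPM against 19.4 and 21.7 TPM. In HCT116 the epithelial markers summed to 995 to 1009 TPM with IgG and H2O2 and 888 to 901 TPM with IgG. There CLDN7 rose most in TPM, at 193 and 184 TPM against 111 and 120 TPM, while ST14 was lower, at 107 and 104 TPM against 114 and 122 TPM. The part of these shifts in the keratin values was not tested.

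The difference between the lines in the H2O2 change was tested directly, and 5 of 18 keratins passed, 4 with a more positive change in HCT116 and 1 with a more negative one. Among all genes tested 17.4% passed, 1067 (7.65%) more positive and 1356 (9.72%) more negative in HCT116. After median-of-ratios scaling 1307 were more positive and 1041 more negative. For KRT15 the change was 0.65 in HCT116 and -0.20 in MDA-MB-231, a difference of 0.86 (SE 0.13, limma adjusted p = 0.00202). For KRT80 it was 0.51 in HCT116 and -0.30 in MDA-MB-231, a difference of 0.81 (SE 0.10, limma adjusted p = 0.000586). Both changes had opposite signs in the lines, although neither passed in MDA-MB-231, and both differences passed in every alternative fit run and without any library left out in turn. The KRT15 levels lay farther apart between the lines with H2O2 than with IgG, and the KRT80 levels lay closer together. KRT80 went up where its level was 1.72 TPM and had lower values where it was above 100 TPM, and KRT15 had lower values where it was below 10 TPM.

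KRT20 differed by -0.66 (SE 0.14, limma adjusted p = 0.00952), but it was listed at 0 in 5 of 6 MDA-MB-231 libraries and at 0.05 TPM in the other, so the difference rests on HCT116. KRT34 differed by 0.61 (SE 0.17, limma adjusted p = 0.0315), with changes of 0.60 in HCT116 and -0.01 in MDA-MB-231. Its call was lost without 4 of the 8 libraries, with a limma adjusted p of 0.0837 without HCT116 IgG replicate 2, 0.0999 without HCT116 IgG with H2O2 replicate 2, 0.0837 without MDA-MB-231 IgG replicate 2 and 0.107 without MDA-MB-231 IgG with H2O2 replicate 1, and also under quantile normalization (0.0765). KRT18 differed by 0.19 (SE 0.05, limma adjusted p = 0.0334), with 0.06 in HCT116 and -0.13 in MDA-MB-231, and this call was lost without any library but HCT116 IgG replicate 1, at a limma adjusted p of up to 0.133. KRT8, its partner, changed in the same direction in both lines and did not differ by the test (0.04, SE 0.06, limma adjusted p = 0.68). KRT19 was just short of the threshold (0.20, SE 0.06, limma adjusted p = 0.0528) and past it with the stricter filter, median-of-ratios scaling and quantile normalization (0.0464, 0.0409 and 0.0284). All 6 type II genes had a positive difference, with a median of 0.23, but only KRT80 passed. Of type I genes 5 of 12 were positive, with a median of -0.08. Over all genes 6071 of 13956 were positive, with a median of -0.04. KRT6A was listed at 0 throughout MDA-MB-231, and KRT81 and KRT86 were at most 1.69 and 0.23 TPM in HCT116, so the signs of type II rest partly on low values.

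**Figure D5:**
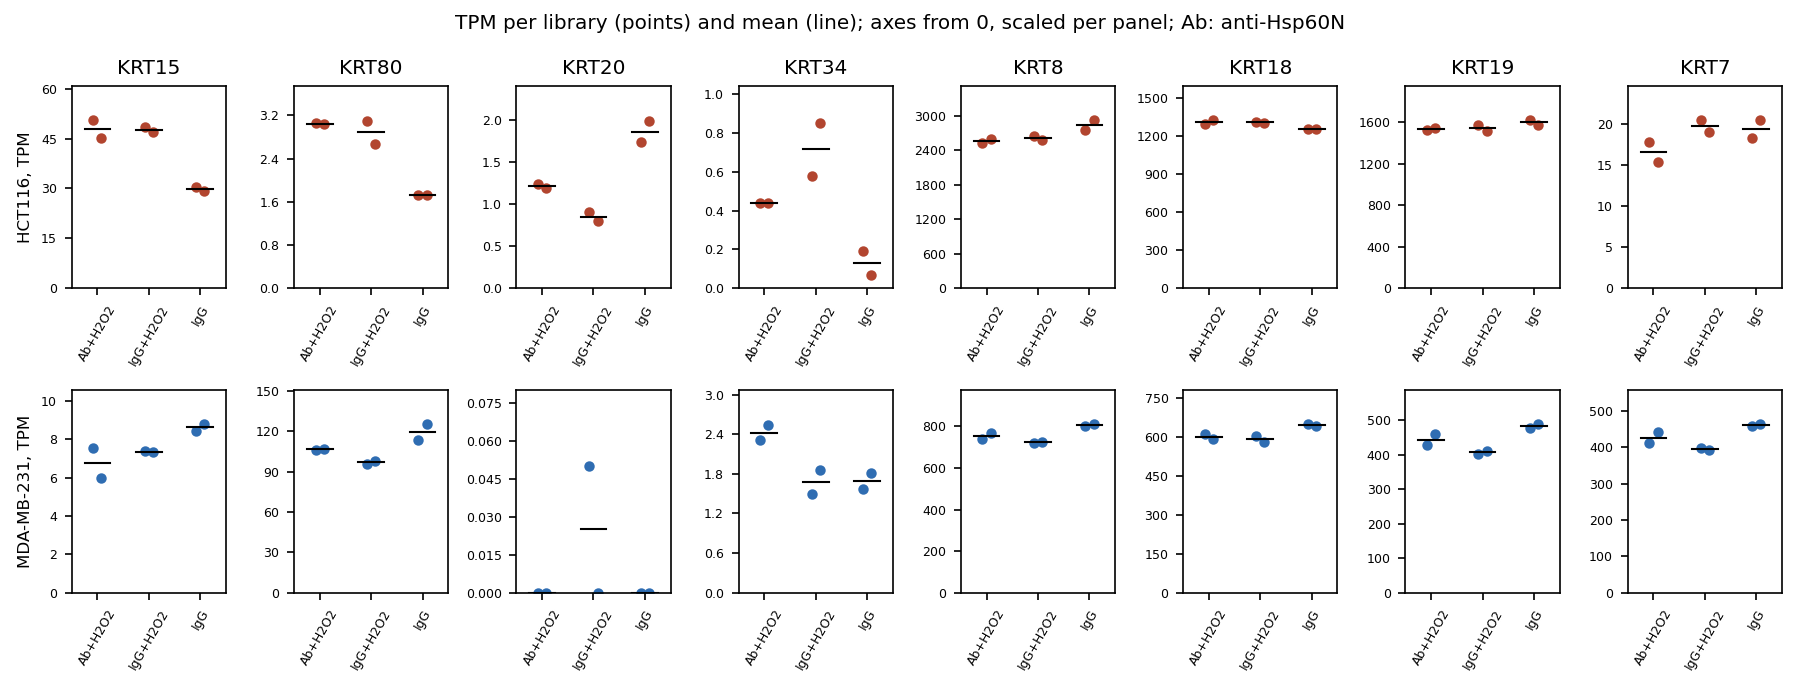
TPM of 8 keratins in each library (points, 2 per group) with the group mean (line), HCT116 above and MDA-MB-231 below, for antibody with H2O2, IgG with H2O2 and IgG from left to right, with axes that start at 0 and are scaled per panel. KRT15 and KRT80 are higher in both H2O2 groups than with IgG in HCT116, and both have their highest values with IgG in MDA-MB-231.

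The antibody was compared with IgG in the presence of H2O2, and no keratin passed in either line. In HCT116 0 of 18 passed by limma and 2 had an unadjusted p under 0.05, where 0.0215% of all genes passed (0.00717% higher and 0.0143% lower). In MDA-MB-231 0 of 18 passed and 4 had an unadjusted p under 0.05, where 0.0143% of all genes passed. The difference between the lines in the antibody change also gave 0 of 18, with 3 at an unadjusted p under 0.05 and 0.0287% of all genes passing. Of all 13956 genes tested, 720 had an unadjusted limma p under 0.05 in HCT116, 1829 in MDA-MB-231 and 1740 for the difference. With 2 libraries a group, these counts do not show that the antibody groups were alike.

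The 2 keratins of HCT116 with an unadjusted p under 0.05 were KRT7 and KRT20. KRT7 was at 17.9 and 15.4 TPM in HCT116 with antibody and H2O2, against 20.5 and 19 TPM with IgG and H2O2 (-0.24, SE 0.07, limma adjusted p = 0.92). KRT20 was at 1.24 and 1.2 TPM against 0.91 and 0.80 TPM, so that its antibody libraries lay between the 2 other groups of HCT116. KRT15 was at 50.6 and 45.1 TPM with antibody and H2O2, against 48.4 and 47.0 TPM with IgG and H2O2, with overlap, and KRT80 at 3.05 and 3.04 TPM against 3.10 and 2.67 TPM. KRT34 was at 0.44 TPM in both antibody libraries, against 0.58 and 0.85 TPM with IgG and H2O2 (-0.25, SE 0.12, limma adjusted p = 0.92). The abundant genes were nearly level: KRT8 was at 2532 and 2592 TPM against 2648 and 2582 TPM, KRT18 at 1289 and 1326 TPM against 1312 and 1303 TPM, and KRT19 at 1523 and 1539 TPM against 1575 and 1517 TPM. Of the 9 keratins with a group mean of at least 5 TPM in HCT116, 1 was higher and 2 were lower without overlap, where 21.9% of all genes were higher and 15.5% lower.

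In MDA-MB-231 the antibody values of the abundant keratins lay mostly above those with IgG and H2O2. Of the 9 at a group mean of at least 5 TPM, 6 were higher without overlap and none lower, at a median log2 fold change of 0.06. Among all genes tested, with no 5 TPM condition, 16.8% were higher and 31.3% lower without overlap. KRT19 was at 427 and 459 TPM with antibody and H2O2, against 403 and 411 TPM with IgG and H2O2 (0.12, SE 0.04, limma adjusted p = 0.314). KRT10 was at 31.0 and 31.8 TPM against 27.0 and 25.9 TPM (0.24, SE 0.07, limma adjusted p = 0.279). KRT34 was at 2.31 and 2.54 TPM with antibody and H2O2, against 1.49 and 1.86 TPM with IgG and H2O2, and KRT17 at 1.27 TPM in both libraries against 0.94 and 0.55 TPM. KRT8 was at 741 and 767 TPM against 719.8 and 727 TPM, KRT7 at 412 and 442 TPM against 398 and 393 TPM, and KRT80 at 106 and 107 TPM against 95.8 and 97.8 TPM. KRT81 was at 287 and 294 TPM against 271 and 286 TPM. KRT18 at 609 and 590.3 TPM overlapped with 602 and 581 TPM, as did KRT15 at 7.54 and 5.99 TPM with 7.39 and 7.33 TPM, and KRT86 at 6.56 and 6.59 TPM with 6.49 and 6.60 TPM. This comparison and that of H2O2 with IgG share the libraries with IgG and H2O2, so a high or low value there moves both in opposite directions.

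Antibody with H2O2 was also set against IgG, a comparison that shares its IgG libraries with that of IgG and H2O2 against IgG. In HCT116 8 of 18 keratins passed, 4 higher and 4 lower, where 34.3% of all genes passed (16.8% higher and 17.5% lower). KRT15 (0.66), KRT80 (0.57), KRT16 (0.58) and KRT34 (0.35) were higher on the log2 scale, and KRT20 (-0.37), KRT10 (-0.29), KRT7 (-0.21) and KRT8 (-0.15) were lower. The matching values for IgG with H2O2 over IgG were 0.65 for KRT15, 0.51 for KRT80, 0.33 for KRT16, 0.60 for KRT34, -0.63 for KRT20, -0.17 for KRT10, 0.02 for KRT7 and -0.12 for KRT8. KRT16 was at 2.06 and 1.71 TPM with antibody and H2O2, against 0.82 and 1.05 TPM with IgG, and shares 11.3% of its 50-base windows with KRT14. KRT10 was at 17.4 and 17.2 TPM with antibody and H2O2, against 21.0 and 21.8 TPM with IgG (SE 0.07, limma adjusted p = 0.00739). KRT81 and KRT86 were at 0.86 to 1.63 and 0.20 to 0.23 TPM with the antibody and did not pass, nor did KRT13 at 5.46 and 6.27 TPM and KRT222 at 8.15 and 6.94 TPM.

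KRT15 and KRT80 kept their calls in this comparison without any library left out in turn. KRT10 did too, while KRT16 was lost without antibody replicate 1 (limma adjusted p = 0.0617), KRT7 without IgG replicate 2 (0.269) or antibody replicate 2 (0.345), and KRT8, KRT20 and KRT34 each without antibody replicate 1 (0.107, 0.0516 and 0.124), IgG replicate 2 (0.113, 0.0835 and 0.192) or antibody replicate 2 (0.0553, 0.0695 and 0.129). With a pseudocount of 0.1 the calls of KRT16, KRT20 and KRT7 were lost (limma adjusted p = 0.0711, 0.112 and 0.0513), with no filter that of KRT7 (0.0775), and with quantile normalization that of KRT34 (0.134). In a fit of HCT116 alone KRT7, KRT8, KRT10 and KRT34 did not pass (0.191, 0.105, 0.0613 and 0.0612). In MDA-MB-231 0 of 18 passed by limma, 8 had an unadjusted p under 0.05, and 3.4% of all genes passed (1.5% higher and 1.9% lower). Of all 13956 genes tested, 2661 had an unadjusted limma p under 0.05 in this comparison. KRT17, the stress keratin, came closest, at 1.27 TPM in both antibody libraries against 0.48 and 0.64 TPM with IgG (0.54, SE 0.13, limma adjusted p = 0.0552). KRT15 was next by p, at -0.32 (SE 0.09, limma adjusted p = 0.0933). Of the 9 keratins with a group mean of at least 5 TPM in each line, 2 were higher and 5 lower without overlap in HCT116, where 32% of all genes were higher and 34% lower. In MDA-MB-231 1 was higher and 7 were lower without overlap, where 24.3% of all genes were higher and 22.1% lower.

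Genes that work with keratins were followed from lists of other intermediate filaments, of desmosomes and hemidesmosomes that anchor keratins, of keratin partners and of regulators of epithelial genes. With H2O2 in HCT116, 1 of 10 other intermediate filament genes tested was higher and 5 lower, where 15.4% of all genes were higher and 17.5% lower. LMNB1 and LMNB2, which encode the B-type lamins of the nucleus, changed by -0.41 and -0.42 (limma adjusted p = 0.000508 and 0.00198), and NES, for nestin, by -0.47 (0.000949). DES, SYNM and BFSP1, named after their values were seen, changed by -0.69, -0.30 and 0.36 (limma adjusted p = 0.00415, 0.0401 and 0.0269). VIM was at 5.39 and 5.81 TPM in HCT116 with IgG and H2O2, against 5.23 and 5.06 TPM with IgG, and did not pass (0.10, limma adjusted p = 0.112).

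Of 17 junction genes tested in HCT116, 2 were higher with H2O2 and 1 lower, a smaller share than the 32.9% of all genes called. PLEC, for the linker plectin, was at 267 and 233 TPM with IgG and H2O2, against 139 and 157 TPM with IgG (0.75, SE 0.13, limma adjusted p = 0.00179). ITGA6, an integrin of hemidesmosomes, was at 80.1 and 89.0 TPM against 64.9 and 60.4 TPM (0.43, SE 0.09, limma adjusted p = 0.00429), and PKP4, for a plakophilin, changed by -0.19 (limma adjusted p = 0.0282). The PKP4 call was lost without IgG replicate 1 or IgG with H2O2 replicate 1 (0.153 and 0.16). With antibody and H2O2 over IgG, 7 of the 17 were higher and none lower, where 16.8% of all genes were higher and 17.5% lower. Among the 7 were the desmosome genes DSP, DSG2 and DSC3 (0.23, 0.29 and 0.39 on the log2 scale), which were named after their values were seen.

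Among 10 keratin partners 2 were higher and 1 lower with H2O2 in HCT116, near the share of all genes called (32.9%). SFN, which encodes the 14-3-3 protein sigma that binds phosphorylated keratins, was at 662 and 691 TPM with IgG and H2O2, against 271 and 306 TPM with IgG. It was the highest of these lists in change, at 1.23 (SE 0.05, limma adjusted p = 1.18e-07). CSNK1A1, a kinase gene, changed by 0.36 and TCHP, for the keratin-binding trichoplein, by -0.35 (limma adjusted p = 0.000933 and 0.00665). Among 17 regulators 4 were higher and 1 lower, also near that share. KLF5 was at 72.4 and 70.2 TPM with IgG and H2O2, against 35.2 and 33.7 TPM with IgG (1.03, SE 0.08, limma adjusted p = 8.64e-06), and KLF4 at 26.0 and 28.2 TPM against 13.9 and 13.4 TPM (0.94, SE 0.08, limma adjusted p = 2.15e-05). ELF3, a factor of differentiated epithelia, changed by 0.55 (limma adjusted p = 0.00155). GRHL3 and TFAP2A, also named after their values were seen, changed by 0.68 and -0.30 (limma adjusted p = 0.0018 and 0.0384).

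In MDA-MB-231 with H2O2, 2 of 17 junction genes were lower and none of the other lists had a call. Of all genes tested, 1.3% were higher and 1.36% lower in this comparison. PPL, for periplakin, was at 0.81 and 0.88 TPM with IgG and H2O2, against 1.38 and 1.57 TPM with IgG (-0.42, SE 0.07, limma adjusted p = 0.0143). PKP2, another plakophilin gene, was at 10.7 and 9.32 TPM against 12.8 and 14.3 TPM (-0.40, SE 0.09, limma adjusted p = 0.039). The PKP2 call was lost without any 1 of the 4 libraries (limma adjusted p of 0.0678 to 0.293), and the PPL call without IgG replicate 2 (0.0695) or either library with IgG and H2O2 (0.12 and 0.0822). VIM was at 2235 and 2233 TPM with IgG and H2O2, against 2518 and 2551 TPM with IgG, and did not pass (-0.18, SE 0.05, limma adjusted p = 0.0677), although it did after median-of-ratios scaling (0.0349). The VIM change differed between the lines by 0.28 (SE 0.06, limma adjusted p = 0.0146). With the antibody over IgG in the presence of H2O2, none of these lists had a call in either line. Of all genes tested, only 0.0143% passed in MDA-MB-231 and 0.0215% in HCT116, so this is no result about the lists.

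Between the lines under IgG the keratin to vimentin balance stood far apart. VIM had a log2 fold change of -8.69 for HCT116 over MDA-MB-231 (SE 0.05, limma adjusted p = 2.93e-16), and the ratio of summed keratin TPM to VIM TPM was 950 to 1160 in HCT116 libraries and 1.13 to 1.16 in MDA-MB-231 libraries. Of the genes that anchor or regulate keratins, the desmosomal cadherin DSC2 was higher in HCT116 by 3.69 on the log2 scale, PPL by 2.89, and the keratin partners EPPK1 and FAM83H by 4.01 and 3.80 (limma adjusted p at or below 9.85e-11 for each). The regulator ELF3 was higher by 3.92. DSC3, CDX2 and GRHL2 averaged 9.21, 16.1 and 10.1 TPM in HCT116 with IgG and were listed at 0 in both MDA-MB-231 libraries with IgG, so no fold is given for them. NES was higher by 1.51 and SYNM had a log2 fold change of -2.17 in HCT116, and PNN, which encodes pinin, was higher by 0.79. By list, 10 of 17 junction genes were higher and 4 lower, 9 of 10 partners were higher and 1 lower, 9 of 17 regulators were higher and 7 lower, and 6 of 10 other intermediate filament genes were higher and 4 lower. These counts stand against 45.5% of all genes higher and 37.3% lower, so that most tested genes of any kind differed.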

How the data were processed

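RNA sequencing of 12 libraries was analysed from the authors' deposited table of TPM values, given to 2 decimals. Per the submitters' processing notes, bcl2fastq 2.20, STAR and RSEM were used with hg19; their roles, the annotation and the strand setting were not given in the sources used here. Columns were matched by name, with 0 unmatched. From log2(TPM + 1), limma 3.58.1 (R 4.3.3, variance trend, two-sided) was fitted on 6 group means over the 12 libraries (6 residual degrees of freedom, prior 4.63) for the 13956 genes at 1 TPM or more in at least 2 libraries, with Benjamini-Hochberg adjustment over all of them, a threshold of 0.05 and 9 comparisons. The procedure was tested on simulated data. Keratins with a group mean of 5 TPM or a call within a line or between the lines' changes are described by library; of related lists, up to 3 genes of smallest p per comparison, and VIM. Members and lists were chosen with earlier results of these data known. Sequences and gene order came from RefSeq GRCh38.p14, and shared 50-base windows and pseudogenes from GENCODE v29; no coordinates of hg19 are given. Alternatives were another pseudocount (0.1), 2 filters, 2 scalings, fits of a line alone, a replicate block and leaving out libraries. Figures used Python 3.11.15 and matplotlib 3.10.9.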

Additional observations from a re-analysis of the deposited data

Results flagged for a closer look

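The change of 5 keratins with H2O2 differed between the lines by the test of the difference itself, HCT116 minus MDA-MB-231 on the log2(TPM + 1) scale. KRT80 differed by 0.81 (SE 0.10, limma adjusted p = 0.000586) and KRT15 by 0.86 (SE 0.13, limma adjusted p = 0.00202), and in both the change was positive in HCT116 and negative in MDA-MB-231. KRT34 differed by 0.61 (SE 0.17, limma adjusted p = 0.0315) on values below 1 TPM in HCT116. KRT20 differed by -0.66 (SE 0.14, limma adjusted p = 0.00952), with MDA-MB-231 listed at 0 in 5 of 6 libraries. KRT18 differed by 0.19 (SE 0.05, limma adjusted p = 0.0334), the smallest of the 5.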

How the results depend on the processing

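No keratin change that was recomputed on its own, which covers those at an unadjusted p under 0.05 in a comparison, reversed under any alternative run. The 18 calls between the lines held under every alternative in which the gene was tested, as did KRT15, KRT20, KRT34 and KRT80 with H2O2 in HCT116. With H2O2 in MDA-MB-231 the count of keratins called (1) was 2 with a mean of at least 5 TPM, 3 with median-of-ratios scaling, 2 with quantile normalization, 0 in a fit of the line alone and 0 to 0 with 1 library left out. With the filter at a mean of at least 5 TPM only 9 keratins were tested, and the counts were 3 for H2O2 in HCT116 (5 otherwise), 5 for antibody with H2O2 over IgG in HCT116 (8) and 9 between the lines (18). Antibody with H2O2 over IgG gave 4 in a fit of HCT116 alone, where KRT10 had an adjusted p of 0.0613, and 1 in MDA-MB-231 with median-of-ratios scaling, KRT17 (0.0442); the cause was not tested. Leaving out 1 library gave 4 to 6 for H2O2 in HCT116, 4 to 8 for antibody with H2O2 over IgG in HCT116 and 0 to 1 in MDA-MB-231, 3 to 5 for the difference between the lines, 18 to 18 between the lines and 0 for the antibody comparisons. Over all genes the counts moved by more than 1.5 times in some settings: 371 for H2O2 in MDA-MB-231 became 86 in a fit of the line alone and 116 to 184 with 1 library left out, and 475 for antibody with H2O2 over IgG became 101 and 145 to 325. Leaving out 1 library gave 3000 to 3878 for H2O2 in HCT116 (4592 otherwise), 2953 to 4269 for antibody with H2O2 over IgG in HCT116 (4792) and 1251 to 2279 for the difference between the lines (2423).

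Without the near-identical copies the type II share in MDA-MB-231 was 54.3%, 54.0% and 54.3% with antibody and H2O2, with IgG and H2O2 and with IgG, and the keratin share of all TPM was 0.237%, 0.225% and 0.256%. Without KRT8 and KRT18 the type II shares were 63.2%, 63.7% and 63.5% in MDA-MB-231 and 1.39%, 1.56% and 1.42% in HCT116, and the keratin shares 0.132%, 0.122% and 0.143% in MDA-MB-231 and 0.165%, 0.167% and 0.171% in HCT116. These shares moved because abundant genes were removed from the sums. Single libraries ranged from 46.7 to 50.4% type II in HCT116 and 58.9 to 59.7% in MDA-MB-231.

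With the replicate number as a block within a line (over both lines for the comparison of the lines), the counts of keratins called were 1 for H2O2 in MDA-MB-231, 4 for H2O2 in HCT116 (KRT8 lost, adjusted p = 0.0633), 7 for antibody with H2O2 over IgG in HCT116 (KRT7 lost, 0.0675), 5 for the difference between the lines and 18 between the lines. Deviations of libraries with the same number correlated at -0.127 to 0.164 between groups. The labels do not state what a shared number stands for, and with 2 libraries a group these correlations cannot decide whether such libraries were paired.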
